A study of Mus musculus with 38 samples.

Results

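In spleens of BXD mice, 118 array probes for 116 genes lay at a lower level in some strains and at a higher level in the others, with a clear gap between. They were chosen on the quantile-normalized log2 intensities themselves. A probe was taken if it had a single gene symbol, lay off chromosomes 17, X and Y, and had a largest gap between neighbouring ordered arrays of at least 0.8 (log2) with at least 10 arrays on each side. Ribosomal protein genes and Fcer1g, Psmb6, Slpi, Serpina1b and Glrx were left out by name. The array measured 17411 named genes. Of its 34492 probes, 18505 met the conditions on symbol and chromosome, and 118 of these met the condition on the gap. The split of each of these genes is therefore a description of how it was chosen, and no test of it is given.

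BXD strains are recombinant inbred mouse lines, each with a genome assembled from stretches of C57BL/6 and of DBA/2 origin and bred to be the same in all its mice. At any locus where the parents differ, a strain is homozygous for either parental allele, so a gene controlled mainly by its own locus can take 2 values across such a panel. Genes close together on a chromosome are usually inherited together, and genes far apart or on different chromosomes are not. An array probe can also bind less well to a transcript that carries a sequence variant under the probe, so a lower signal and a lower transcript level are not the same thing. Neither strain genotypes nor probe sequences were used here, so which parental allele goes with which level is not given.

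The study measured total spleen RNA of 38 BXD strains on Illumina Mouse-6 v1.1 bead arrays read in a single colour, 38 in all. All mice were adults 8 to 12 weeks old with no treatment named in the labels, and each array held RNA pooled from 2 mice of the same strain and sex. The labels gave 35 arrays as male and those of BXD18, BXD38 and BXD96 as female. Each strain thus had 1 array, and the spread between strains holds technical error too. Between 12213 and 14162 probes per array had a detection p-value under 0.01, and array medians of the intensity before normalization ran from 85.03 to 121.6. The median normalized intensity of all probes was 6.67 (log2).

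The 118 probes were of 2 kinds. A set of 27 probes for 26 genes followed the mean of a list of pancreatic enzyme genes over the 38 arrays, with r of 0.90 or more (19 list genes measured, 18 of them among the 116 genes). The other 91 probes, for 90 genes, had an r between -0.39 and 0.39 with that mean, except Ttr at 0.65, which encodes the thyroid hormone carrier transthyretin. The limit of 0.8 that separates the sets was set after seeing these values. The 91 probes are called the compact set below, since their levels were narrow. The wider level of a compact probe spanned 0.33 to 3.19 from its lowest to its highest array (median 0.80), against 3.09 to 6.42 (median 4.57) for the pancreatic set. The gaps of both sets overlapped, from 0.81 to 3.36 (median 1.23) in the compact set and from 0.80 to 1.69 (median 1.26) in the pancreatic set. In 72 of the 91 compact probes the gap was wider than either level. How many probes met the limits depended on the processing, with 60 by neqc, limma's background correction and normalization (28 of the 91 compact probes among them), and 58 in the authors' deposited table (35 of the 91), where the same arrays nevertheless lay on each side for 90 of the 91.

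**Figure D1:**
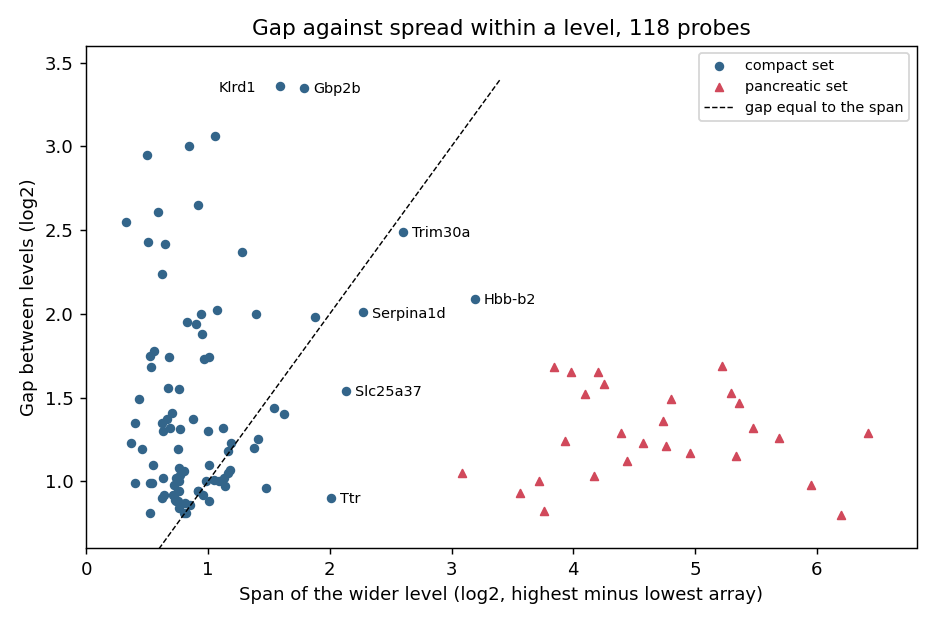
Gap between the levels (y axis, log2) against the span of the wider level from its lowest to its highest array (x axis, log2) for each of the 118 probes, with circles for the compact set and triangles for the pancreatic set. The dashed line marks a gap equal to the span. Spans of the pancreatic set start at 3.09, and the compact set reaches that far only for Hbb-b2 at 3.19.

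Pancreatic enzymes are made in acinar cells for digestion in the gut, and the spleen has no such cells of its own, though the tail of the pancreas lies against it. The mean of the pancreas list ran from 6.82 in BXD66 to 15.27 in BXD28, with a median of 9.74, and 18 arrays lay below 9. Ctrb1, which encodes chymotrypsinogen, lay at 6.23 to 9.14 on 13 arrays and at 10.46 to 15.94 on 25. For Cela2a, an elastase gene, 18 arrays lay between 6.52 and 10.77 and 20 between 12.35 and 15.94. Each of these levels held a wide range of values. Fewer acinar cells and less enzyme RNA per cell cannot be told apart in such bulk RNA, and the same holds for any cell type and gene below. The rest of the account concerns the compact set.

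A compact probe had 12 to 28 arrays at its lower level (median 20), and 78 of the 91 had between 14 and 24 there. The medians of both levels differed by 1.27 to 4.68 (log2, median 1.99). Gaps over 2 were seen in 16 probes and gaps over 1.5 in 31. In 24 probes the 3 female arrays lay on the same side. By strain, the number of compact genes at the higher level ran from 30 of 90 in BXD32 to 55 in BXD62, with a median of 45.5. A detection p-value under 0.01 was given on all arrays for 26 compact probes, and on every array of the higher level and on no array of the lower for 18.

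For a probe detected on no array of the lower level the fold between the levels is only a bound. For 22 compact probes it is therefore given as "at least", from the mean of the higher level over the mean, per array of the lower level, of the probe's own signal or the lowest signal of any detected probe, whichever was larger. These bounds ran from 1.97 to 20.4-fold and hold only for the quantile-normalized intensities. The difference of levels of Klrd1 was 4.62 (log2) here, 2.97 with neqc and 3.01 in the deposited table. For Sspn it was 3.72, 1.43 and 1.95, so neither bound was met there. The higher level was itself not always detected. It was detected on 1 of 21 arrays for Casp9, 2 of 18 for Polr1b, 5 of 25 for Mrpl35 and 8 of 24 for Il18bp. For the 63 compact probes detected on some array of both levels the fold between the medians ran from 2.49 to 25.6 (median 3.80). Of these, 26 were detected on every array of the lower level and 37 on only some, so for the 37 the fold rests in part on values near background. No fold is given for Rpe, Fgr, Cptp and Osbp, detected on no array, or for Slamf6 and Thumpd1, detected on no array of the higher level. The deposited detection p-values did not always follow intensity. Of all values at a normalized log2 of 9 or more, 8.09% did not reach a detection p-value under 0.01, and of such values of compact probes 8.54% did not.

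Several of the compact genes with the widest gaps act in immune defence. Klrd1, on chromosome 6, encodes CD94, which pairs with NKG2 receptors on natural killer cells. It lay at 6.19 to 6.61 (median 6.41) on 13 arrays and at 9.98 to 11.57 (median 11.02) on 25. No array lay in the 3.36 between, and the higher level was at least 20.4-fold above the lower, where the probe was detected on no array. The r of Klrd1 with the mean of the other measured genes of a natural killer cell list was 0.53 over the 38 arrays. This was the largest in size of any compact probe for that list. The list holds Klrb1c, which lies on the same chromosome as Klrd1, so its mean is not independent of that chromosome. The part of natural killer cell content in the levels of Klrd1 was not tested. Gbp2b, on chromosome 3, encodes an interferon-inducible guanylate-binding GTPase. Its levels were 6.67 to 7.48 (median 7.04) on 15 arrays and 10.83 to 12.62 (median 11.71) on 23, a 25.6-fold difference of medians and a gap of 3.35, with the probe detected on 13 of the 15 lower arrays.

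Apobec3, on chromosome 15, encodes a cytidine deaminase that restricts retroviruses. Its probe of wider gap lay at 6.09 to 6.55 (median 6.26) on 21 arrays and at 9.61 to 10.67 (median 10.12) on 17, at least 11.6-fold higher. Samsn1, on chromosome 16, encodes an SH3 and SAM domain adaptor that restrains B cell activation. It lay at 6.68 to 7.18 (median 6.92) on 20 arrays and at 10.13 to 10.51 (median 10.35) on 18, at least 10.6-fold higher. The higher level of Samsn1 spanned less than that of Klrd1, Gbp2b or Apobec3. Trim30a, on chromosome 7, encodes an interferon-inducible TRIM protein that dampens Toll-like receptor signalling. It lay at 6.43 to 7.04 (median 6.66) on 14 arrays and at 9.53 to 12.13 (median 11.13) on 24, with a gap of 2.49. The medians differed 22.1-fold, but the probe was detected on only 2 of the 14 lower arrays, where its median was near that of all probes.

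Wide gaps were also found in genes of general cell functions. Sspn, on chromosome 6, encodes sarcospan of the dystrophin complex. Its levels were 5.81 to 6.41 (median 6.11) on 20 arrays and 9.41 to 10.25 (median 9.83) on 18, at least 9.22-fold apart. Necap2, on chromosome 4, encodes a protein of clathrin-mediated endocytosis and was bright at both levels. It lay at 8.84 to 9.51 (median 9.22) on 18 arrays and at 12.17 to 13.09 (median 12.73) on 20, an 11.4-fold difference. Tomm22, on chromosome 15, encodes a receptor of the mitochondrial import complex. It lay at 7.28 to 7.73 (median 7.58) on 20 arrays and at 10.16 to 10.67 (median 10.40) on 18, a 7.05-fold difference. Levels cannot overlap under the rule, and these 3 genes were named for their wide gaps. In each of them both levels spanned far less than the gap.

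Trim11, on chromosome 11, encodes an E3 ubiquitin ligase and lay at 6.51 to 7.01 (median 6.79) on 23 arrays and 9.38 to 10.66 (median 10.45) on 15. Nudt6, on chromosome 3, encodes a Nudix hydrolase and lay at 6.64 to 7.28 (median 6.89) on 22 arrays and 9.69 to 10.34 (median 9.89) on 16. Fgfr1op2, a neighbour of Sspn, lay at 7.68 to 8.30 (median 8.00) on 20 arrays and 10.54 to 10.90 (median 10.79) on 18. The folds of the medians were 12.7 for Trim11, detected on 8 of its 23 lower arrays, and 7.99 for Nudt6, detected on 14 of its 22. Fgfr1op2 had a fold of 6.94 and was detected on 13 of its 20 lower and on 12 of its 18 higher arrays. 1700123O20Rik, on chromosome 14, had 26 arrays at 6.02 to 6.60 (median 6.35) and 12 at 8.62 to 9.69 (median 9.39), at least 6.38-fold apart.

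The detection p-value and the intensity went apart for several of the compact probes, since 10 were detected on some but not all arrays of the higher level, Fgfr1op2 among them, and 6 on none. Thumpd1, on chromosome 7, encodes a partner of the enzyme that acetylates tRNA. It lay at 6.64 to 6.94 (median 6.74) on 14 arrays and at 9.49 to 9.82 (median 9.68) on 24. On those 24 arrays its detection p-value was 0.0113 to 0.236, and it was under 0.01 only on 3 arrays of the lower level. Polr1b, on chromosome 2, encodes the second-largest subunit of RNA polymerase I. It lay at 6.34 to 6.64 (median 6.44) on 20 arrays and at 9.24 to 9.83 (median 9.65) on 18, and was called detected on 2 of those 18 and on none of the 20. What lies behind these detection p-values was not tested.

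Hbb-b2 encodes the minor adult beta globin, and inbred mouse strains are known to carry different beta-globin haplotypes. Its lower level had the widest span of any level in the compact set, at 8.65 to 11.84 (median 9.82) on 23 arrays. The higher level lay at 13.93 to 14.98 (median 14.42) on 15, with a gap of 2.09. The r of Hbb-b2 with the mean of 18 measured genes of an erythroid list, which holds other globin genes, was 0.49. Its split was the reverse of that of Trim30a and Il18bp, also on chromosome 7, on 37 of 38 arrays, all but BXD69 (r = -0.95 with each). The part of red cell content in its levels was not tested, nor was binding of its probe to the near-identical major globin.

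**Figure D2:**
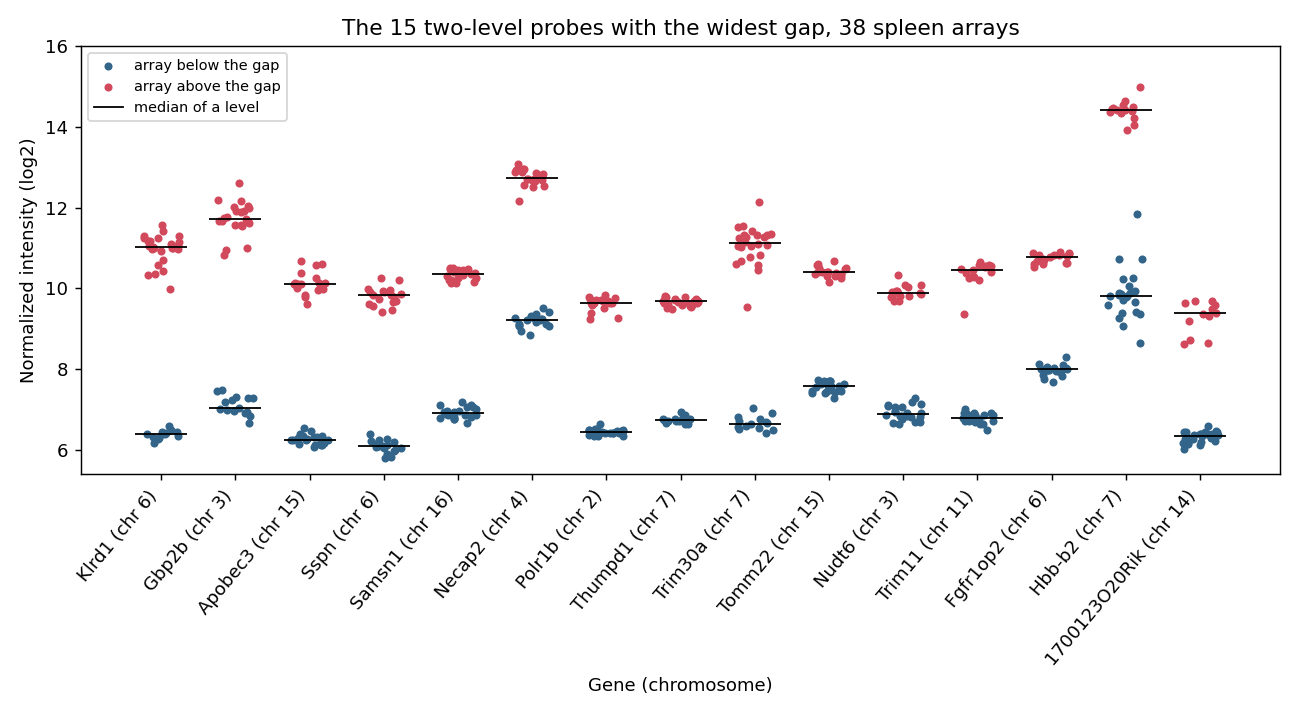
Normalized intensity (y axis, log2) on each of the 38 arrays for the 15 probes with the widest gap (x axis, gene and chromosome, widest first), with arrays below the gap in blue, arrays above it in red and black lines at the median of each level. Each gene shows an empty interval between its levels, from 3.36 for Klrd1 to 2.02 for 1700123O20Rik.

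Since 4 compact genes are known as interferon-inducible or antiviral, their promoters are printed here. The windows run from 250 bases before to 50 after the start of the gene and are taken from RefSeq (GRCm38.p6). Capitals mark a pair of GAAA parted by any 2 bases or, on the other strand, a pair of TTTC parted by any 2 bases, a core of the element bound by interferon regulatory factors. No other motif was searched, and this one was chosen after the 4 genes were known. Each printed window is the first of its gene that held a match, and other windows of the same gene are not shown. As the motif was chosen after the genes, the matches are a description and no test.
Gbp2b promoter, chr3:142594597-142594896 (+ strand): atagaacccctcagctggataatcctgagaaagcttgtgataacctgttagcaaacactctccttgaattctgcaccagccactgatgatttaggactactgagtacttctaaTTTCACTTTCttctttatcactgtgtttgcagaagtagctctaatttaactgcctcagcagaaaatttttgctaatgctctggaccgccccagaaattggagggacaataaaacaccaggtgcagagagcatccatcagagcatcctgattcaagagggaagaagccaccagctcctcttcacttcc
Ifi205 promoter, chr1:174031706-174032005 (- strand): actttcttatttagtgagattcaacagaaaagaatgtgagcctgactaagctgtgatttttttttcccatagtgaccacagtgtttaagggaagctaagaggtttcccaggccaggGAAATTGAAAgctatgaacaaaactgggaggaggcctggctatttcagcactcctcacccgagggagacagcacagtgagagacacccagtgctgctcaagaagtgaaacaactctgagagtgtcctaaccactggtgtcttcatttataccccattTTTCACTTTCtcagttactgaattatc
Trim30a promoter, chr7:104465144-104465443 (- strand): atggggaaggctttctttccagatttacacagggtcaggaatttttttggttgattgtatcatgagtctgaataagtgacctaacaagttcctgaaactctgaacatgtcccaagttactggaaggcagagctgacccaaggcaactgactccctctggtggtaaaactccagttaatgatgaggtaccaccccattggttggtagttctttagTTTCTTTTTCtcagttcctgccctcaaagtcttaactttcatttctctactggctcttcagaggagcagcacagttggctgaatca
Apobec3 promoter, chr15:79892158-79892457 (+ strand): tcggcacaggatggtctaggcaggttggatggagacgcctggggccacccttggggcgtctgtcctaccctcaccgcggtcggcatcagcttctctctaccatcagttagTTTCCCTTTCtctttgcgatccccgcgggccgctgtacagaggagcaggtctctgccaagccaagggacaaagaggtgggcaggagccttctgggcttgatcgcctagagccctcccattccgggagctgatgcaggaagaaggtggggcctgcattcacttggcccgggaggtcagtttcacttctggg
Such a match was present in a window of 1079 of 27025 genes (3.99%) and of 5 of the 78 compact genes with a window (6.41%). The fifth gene was Rpe, which encodes an enzyme of the pentose phosphate pathway. A match is a run of letters in the reference genome and says nothing of binding in these spleens. Ifi205, on chromosome 1, belongs to the interferon-inducible p200 family of nucleic acid sensors and had 2 matches. It lay at 6.31 to 6.61 (median 6.51) on 19 arrays and at 7.61 to 8.70 (median 8.29) on 19.

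Sorted by role, 10 compact genes encode immune receptors, adaptors or signalling proteins, 4 are interferon-inducible or antiviral, and 10 act in mitochondria. A further 9 act in membrane traffic and lipid transfer, 9 in the cytoskeleton and cell cycle, 11 in transcription or the nucleus, 10 are proteases, their inhibitors or ubiquitin enzymes, 5 are metabolic enzymes or kinase subunits, and 22 were put in no group. These roles were assigned by hand after the genes were known, and no enrichment was tested. The median gap of the 4 interferon-inducible genes was 2.78 with the Apobec3 probe of wider gap and 1.84 with the narrower. It was 1.04 to 1.35 for the other named groups and 1.24 over all compact genes. Gaps of the 4 ran from 1.0 for Ifi205 to 3.35 for Gbp2b. As all genes were chosen on the gap, these medians only describe the groups. The immune genes beside Klrd1 and Samsn1 were Cd48, Slamf6, Fgr, Tnfrsf4, Tlr1, Siglecg, Il18bp and Gapt, and the gaps of all 10 ran from 0.86 to 3.36.

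The compact genes were then ordered along each chromosome by the RefSeq gene table (GRCm38.p6), which the deposited files do not name, so only order and the count of annotated genes between are used. Neighbouring genes were joined in a block where at least 34 of 38 arrays lay on the same side of both gaps, or at least 34 on opposite sides. Hbb-b2 and Prkag2, a subunit gene of the AMP-activated kinase, had no place in this order and could not be joined. This gave 21 blocks with 52 genes, of at most 4 genes each, and left 38 compact genes outside. Among these 38 is Hbb-b2, though it matched Trim30a and Il18bp on 37 arrays as given above. Prkag2 matched no compact gene of its chromosome on more than 24. Of 31 joined pairs of neighbours, 26 ran in the same direction and 5 in opposite directions, and in 15 all 38 arrays matched. A matching split thus included pairs in which the higher level of a gene went with the lower level of its neighbour.

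Matching on 34 arrays or more was seen only within a chromosome. Of 3703 pairs of compact genes on different chromosomes 0 matched so often, with a median of 21 and a highest of 31. Of 302 pairs on the same chromosome 45 did. The matching fell with distance in the 294 same-chromosome pairs with a place in the order, 43 of them at 34 or more. The other 8 pairs were those of Hbb-b2 and Prkag2. With 0 to 10 annotated genes between, 11 pairs matched on 36 to 38 arrays, and with 11 to 50 between, 12 of 13 pairs reached 34, the other at 29. That exception was Adamdec1, an ADAM-family protease gene, with Slc25a37, the mitochondrial iron importer mitoferrin, on chromosome 14. With 51 to 200 genes between, 18 of 30 pairs reached 34, with over 200 and up to 500 between 2 of 59, and with more than 500 between 0 of 181. Median matching over these distances was 38, 38, 34, 28 and 22 arrays. As matching is the larger of the same-side and opposite-side counts, it cannot be under 19. The best matches between chromosomes, at 31 arrays, were of Frzb on chromosome 2, a secreted Wnt antagonist, with Ddx25 and Srpr on chromosome 9 (r = 0.61 and 0.56) and with Slc25a37 (r = 0.58).

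**Figure D3:**
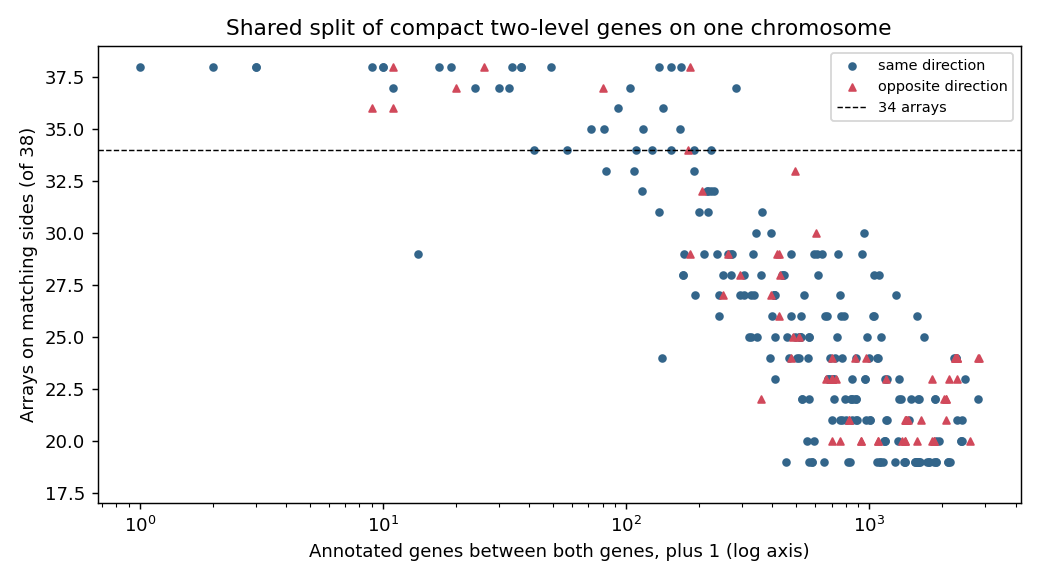
Arrays on matching sides (y axis, of 38) against the number of annotated genes between a pair of compact genes on the same chromosome, plus 1 (x axis, log scale), with circles for pairs in the same direction, triangles for opposite direction and a dashed line at 34. Pairs with at most 10 genes between lie at 36 to 38, and pairs with more than 500 between lie at 19 to 30.

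Chromosome 4 held the most compact genes, 17 of its 1170 eligible probes (1.45%), against 1 of 930 on chromosome 10 (0.108%) and 1 of 1006 on chromosome 8 (0.0994%). It carried 5 blocks with 14 genes. In the first, Rusc2, Tesk1, a kinase that phosphorylates cofilin, and Reck, an inhibitor of matrix metalloproteinases, split the 38 arrays in the same way, 18 low and 20 high. Tesk1 had the widest gap of these, with 6.20 to 6.71 (median 6.50) against 8.71 to 10.10 (median 9.45). Tceanc2 and the kinesin gene Kif2c, which depolymerises microtubules, matched on 34 arrays, all but BXD16, BXD28, BXD43 and BXD87. Kif2c lay at 5.92 to 6.39 (median 6.10) on 25 arrays and at 8.37 to 10.25 (median 9.27) on 13.

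The third block of chromosome 4 held Eya3, a phosphatase and transcriptional coactivator, Fgr, a Src-family kinase of myeloid cells, the GTPase gene Gpn2 and Mul1, a mitochondrial ubiquitin ligase. Fgr was opposite to Eya3 and Gpn2 on all 38 arrays. Eya3 lay at 7.91 to 8.31 (median 8.17) where Fgr lay at 8.99 to 10.40 (median 9.36), and at 9.30 to 9.68 (median 9.48) where Fgr lay at 7.15 to 7.74 (median 7.41). The Fgr probe was detected on no array by its detection p-value. Mul1 differed from Gpn2 on BXD16, BXD40, BXD44 and BXD65. Necap2 and Casp9, the initiator caspase of the mitochondrial death pathway, differed on BXD87 alone. Casp9 lay at 6.39 to 6.91 (median 6.70) on 17 arrays and at 8.65 to 8.99 (median 8.77) on 21. Its probe was detected on 1 of those 21 arrays and on none of the 17. In the last block Tnfrsf4, the T cell costimulatory receptor OX40, and B3galt6, an enzyme of proteoglycan linker synthesis, matched on all 38 arrays. Cptp, which moves ceramide 1-phosphate between membranes, was opposite to them except in BXD43 and BXD66. Tnfrsf4 lay at 6.48 to 7.25 (median 6.85) on 20 arrays and at 8.56 to 9.32 (median 8.87) on 18.

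On chromosome 1, Cd48 and Slamf6, receptors of the SLAM family on lymphocytes, had the same 16 low and 22 high arrays, and Ifi205 joined them except in BXD29, BXD62 and BXD68. Cd48 lay at 6.41 to 7.02 (median 6.59) against 7.90 to 8.91 (median 8.33), and Slamf6 at 6.53 to 6.87 (median 6.68) against 8.42 to 9.18 (median 8.66). The Slamf6 probe was detected on 1 array, of its lower level. Also on chromosome 1, Thap4 and Gin1, an integrase-like gene of retroelement origin, matched on 34 arrays, as did Cryzl2 and Klhl20, a substrate adaptor of the cullin 3 ubiquitin ligase. Cryzl2 lay at 6.50 to 6.87 (median 6.62) on 17 arrays and at 8.81 to 9.71 (median 9.38) on 21, at least 6.3-fold higher. The first of these 3 blocks thus joined immune genes of different families.

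On chromosome 2, Stard7, which carries phosphatidylcholine to mitochondria, and Polr1b had the same 20 low and 18 high arrays. Ctdspl2, a phosphatase-like gene, differed from Stard7 in BXD11 and BXD32, and Tubgcp4 of the gamma-tubulin ring complex differed from Ctdspl2 in BXD75. Stard7 lay at 7.37 to 7.90 (median 7.70) against 9.58 to 10.07 (median 9.88). Its probe was detected on 7 of the 20 lower and 9 of the 18 higher arrays. Tasp1, a protease that cleaves MLL proteins, and the kinesin gene Kif3b differed only in BXD75 although 283 annotated genes lie between them, the longest distance of any joined pair. Kif3b lay at 6.57 to 6.94 (median 6.76) on 26 arrays and at 8.29 to 8.69 (median 8.45) on 12.

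Chromosome 15 had a block in which Apobec3 and Mief1, a receptor of mitochondrial fission, split the arrays alike, 21 low and 17 high, and Tomm22 differed from them only in BXD19. Mief1 lay at 9.36 to 9.99 (median 9.57) against 11.01 to 11.59 (median 11.19). On chromosome 6, Sspn and Fgfr1op2 matched on all 38 arrays (r = 0.99), as did Mrpl35, a mitochondrial ribosomal protein gene, and Ptcd3, a factor of the same ribosome. Ptcd3 lay at 7.0 to 7.50 (median 7.32) on 13 arrays and at 9.06 to 9.73 (median 9.39) on 25. On chromosome 13, Zfp367, Zfp738 and Fastkd3, a regulator of mitochondrial RNA, all had the same 20 low and 18 high arrays. Zfp367 had the widest gap of these, 6.68 to 7.33 (median 7.06) against 9.28 to 10.11 (median 9.67).

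Chromosome 11 had a block of neighbours with no annotated gene between them, Prorsd1 and Mtif2, the mitochondrial translation initiation factor, which matched on all 38 arrays. Mtif2 lay at 7.24 to 7.97 (median 7.51) on 16 arrays and at 8.97 to 9.73 (median 9.44) on 22. Its probe was detected on 1 of those 16 and on 12 of those 22. Ndel1, a dynein regulator, and Gps2, a corepressor subunit, differed in BXD48, and 6330403K07Rik was opposite to Ndel1 on all 38 arrays. It lay at 6.55 to 7.36 (median 6.84) on 19 arrays and at 9.09 to 10.10 (median 9.71) on the other 19. On chromosome 12, Serpina1d, an alpha-1 antitrypsin gene, and Serpina3f, an antichymotrypsin-like gene, lay on opposite sides on all arrays but BXD38. Serpina1d lay at 7.30 to 9.57 (median 7.97) on 17 arrays and at 11.58 to 12.75 (median 12.03) on 21, and Serpina3f at 7.0 to 7.71 (median 7.55) on 20 and at 9.11 to 10.73 (median 9.91) on 18. Both belong to families of close copies, as do Gbp2b, Trim30a and Ifi205, and binding of a probe to another copy was not tested.

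In the remaining blocks, Il18bp, the decoy for interleukin 18, and Trim30a on chromosome 7 matched on all 38 arrays with 168 annotated genes between. Il18bp lay at 6.10 to 6.48 (median 6.31) on 14 arrays and at 7.55 to 8.73 (median 8.36) on 24. Its probe was detected on 8 of those 24 arrays and on none of the 14. Srpr, the signal recognition particle receptor, and the RNA helicase gene Ddx25 on chromosome 9 also matched on all arrays, Srpr at 9.35 to 10.09 (median 9.63) against 11.11 to 11.67 (median 11.30). Ccng2, an atypical cyclin, and Coq2, an enzyme of coenzyme Q synthesis, on chromosome 5 differed in BXD18, BXD34, BXD45 and BXD62. Hps1, mutated in Hermansky-Pudlak syndrome, and Arl3, a small GTPase of the cilium, on chromosome 19 differed in BXD28, BXD66, BXD87 and BXD96. Arl3 lay at 7.54 to 8.25 (median 7.96) on 18 arrays and at 10.13 to 11.08 (median 10.77) on 20.

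**Figure D4:**
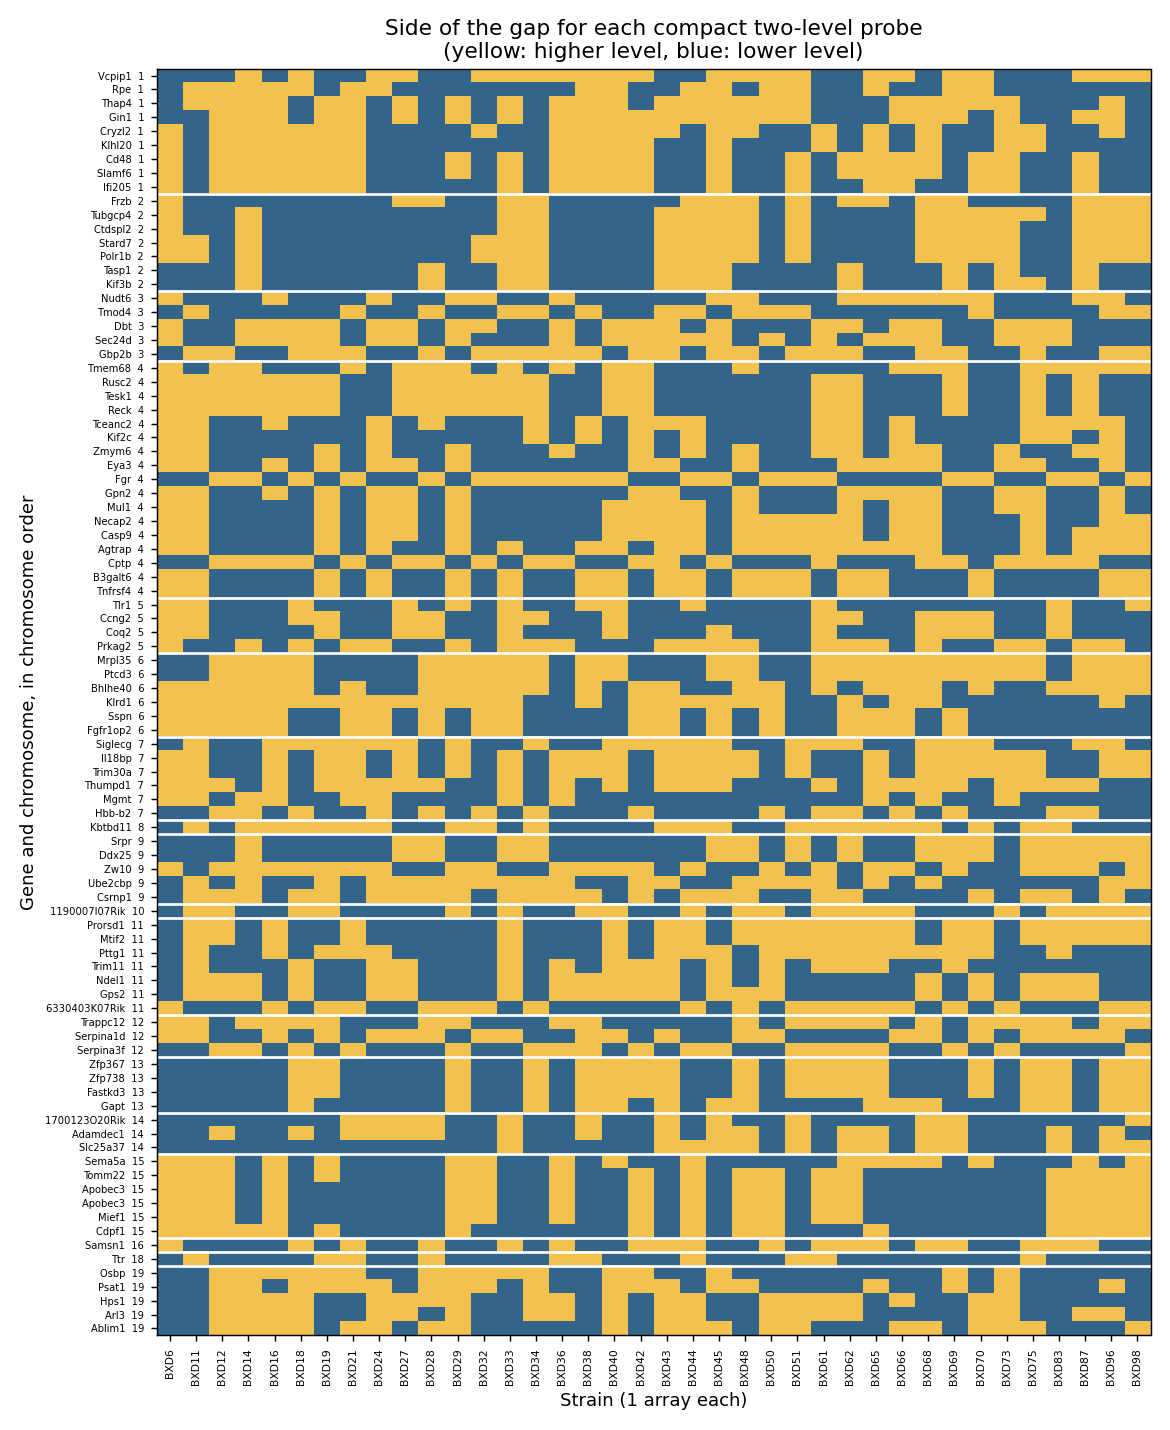
Side of the gap for each of the 91 compact probes (rows, gene and chromosome in chromosome order) in each of the 38 strains (columns, 1 array each), yellow for the higher and blue for the lower level. White lines part chromosomes, Hbb-b2 and Prkag2 stand last on theirs because they have no place in the order, and blocks such as Rusc2, Tesk1 and Reck appear as rows of the same pattern, or of the reverse pattern for Fgr beside Eya3.

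Some of the other probes inside a block followed its split. Between the joined neighbours the array measured 900 probes of 801 other named genes. Of these probes, 50 (5.56%) had an absolute r of 0.8 or more with at least one gene of the pair. The unjoined neighbours with the most probes between them were Frzb and Tubgcp4 (10 of 515 probes), Siglecg and Il18bp (8 of 472) and Trappc12 and Serpina1d (1 of 412). Between Mul1 and Necap2, also unjoined, it was 5 of 38. The share over all unjoined neighbours was not computed. Among genes measured between joined neighbours were Trim30b, beside Trim30a (0.99), Psmb6, between Gps2 and 6330403K07Rik (0.98), Serpina1a (0.98) and Mgat3, beside Apobec3 (0.94). Psmb6 is one of the genes left out by name. For the 5 compact probes of widest gap, the named probes of other genes with the largest absolute r were mostly on the same chromosome. Between these and the compact gene lay 7 (Klri2 and Pkn2) to 129 (Lrp6) annotated genes. For Klrd1 they were Lrp6 (-0.78), Klra1 (0.77) and Klri2 (0.74), all on chromosome 6. For Gbp2b they were Pkn2 (-0.91), Bcl10 (-0.64) and Ddah1 (-0.63), all on chromosome 3, and for Apobec3 Mief1 (0.98), Mgat3 (0.93) and Tomm22 (0.93). For Samsn1 they were Cxadr (0.68), Gbe1 (0.67) and D16Ertd472e (-0.62) on chromosome 16. For Sspn they were Fgfr1op2 (0.99), Tm7sf3 (0.79) and, on chromosome 12, Snapc1 (-0.63). All these r are over the same 38 arrays and the same RNA, and describe likeness only.

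Some genes had a second probe. Other probes were looked up for the compact genes only. The array held 36 such other probes for 25 of these genes, which were not two-level themselves. These are the probes that the rule on the gap left out. A second probe with as clear a split would have been chosen, as for Apobec3, so the values below are a description. Their r with the two-level probe of their gene ran from -0.73 to 0.72 with a median of 0.18. None reached 0.8, 3 reached 0.5, and 20 lay within 0.3 of 0. The 3 were probes of Ablim1, an actin-binding LIM protein (r = 0.72, log2 intensity 7.26 to 9.22), of Ctdspl2 (0.66, 8.78 to 9.56) and of Trappc12, a vesicle tethering factor (0.53, 9.57 to 10.45). Further other probes of these genes had a lower r, at 0.19 and 0.47 for Ablim1, -0.12 for Ctdspl2 and -0.06 to 0.47 for Trappc12. Of all 36, the 3 lowest were of Tasp1 (-0.73, 8.71 to 9.61), Gin1 (-0.29, 6.35 to 6.79) and Kbtbd11 (-0.22, 6.25 to 6.80). The other probe of Tasp1 thus ran against its two-level probe and was detected on all 38 arrays.

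Many, but not all, of the other probes with an r near 0 were dim. Of the 20 other probes within 0.3 of 0, 14 were detected on no array and 4 on every array. Over the 12 other probes detected on every array r ran from -0.73 to 0.72 with a median of 0.34. Slc25a37 is such a case, since its other probe was bright, at 10.80 to 13.37, and had an r of 0.02 with the two-level probe. That probe lay at 6.06 to 6.43 (median 6.23) on 25 arrays and at 7.97 to 10.10 (median 9.48) on 13. Slc25a37 was named after its value was seen. For Apobec3 both probes were two-level, with the same 21 and 17 arrays and an r of 0.97. Probes of a gene may lie in different exons or transcript ends, and which transcripts each detects was not tested.

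**Figure D5:**
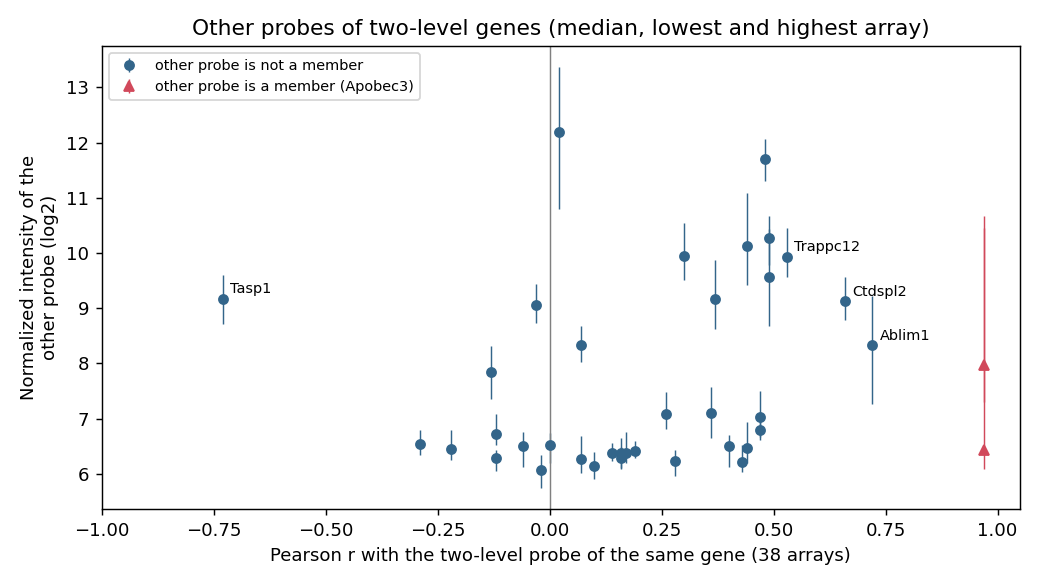
Normalized intensity of the other probes of compact two-level genes (y axis, log2, point at the median over 38 arrays, bar from lowest to highest array) against their r with the two-level probe of the gene (x axis). Circles are 36 probes that were not two-level, from -0.73 for Tasp1 to 0.72 for Ablim1, and triangles are both probes of Apobec3 at 0.97.

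The series sets spleen expression against flow cytometry traits, and 34 of the strains had both. LN T:B gives T cells over B cells as a natural log (-2.108 to 0.442 over the strains, median -0.613). LN CD4:CD8 gives T helper over cytotoxic T cells in the same way (-0.007 to 1.152, median 0.4535). LN MHC Med is the log of the MHC class II signal of B cells (3.016 to 4.146, median 3.716). Each probe was fitted on each trait with limma, and p-values were adjusted over all 34492 probes by the Benjamini-Hochberg method. None of the 118 probes was called for any of the 3 traits at an adjusted p under 0.05. Over all probes percent called was 0 for LN T:B, 0 for LN CD4:CD8 and 0.087 for LN MHC Med (30 probes, of which 24 had a single symbol, all 24 on chromosome 17). At an unadjusted p under 0.05 limma gave 8 of the 118 for LN T:B (6.78%, against 9.03% of all probes), 6 for LN CD4:CD8 (5.08% against 8.78%) and 1 for LN MHC Med (0.847% against 4.76%).

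For LN CD4:CD8 the smallest unadjusted p among the 118 was that of Trappc12, with a slope of -0.55 ± 0.16 (log2 per SD of the trait, SE, n = 34; limma p = 0.00144, adjusted p = 0.503). Tasp1 followed with 0.34 ± 0.11 and Nudt6 with -0.64 ± 0.23, at the same adjusted p of 0.503 in limma. For LN T:B the smallest was that of Ccng2, with 0.56 ± 0.22 (limma adjusted p = 0.422), then Ube2cbp with -0.31 ± 0.13 and Cdpf1 with -0.29 ± 0.13. For LN MHC Med it was that of Slc25a37, with -0.62 ± 0.23 (limma adjusted p = 0.988), then the pancreatic gene Zg16 with 1.10 ± 0.55 and Frzb with -0.24 ± 0.12. None of these slopes passed the adjusted threshold, which does not show that they were 0. The 9 slopes were 0.14 to 0.97 times as large with neqc (median 0.29) and 0.34 to 0.93 times in the authors' deposited table (median 0.49). That of Zg16 was 0.10 with the mean of the pancreas list as a covariate. The LN T:B of BXD14 and BXD98 lay farthest from the median. Without them limma gave 25 of the 118 an unadjusted p under 0.05 for that trait (21.2%, against 5.48% of all probes), and again called none. Only 6 of the 91 compact probes were among the 25. The rest were of the pancreatic set, whose probes all followed the same list mean and so do not count as separate results.

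Marker lists of blood cells were set beside the compact genes. Over the 38 arrays the largest r of a compact probe with a list mean was 0.55 for the T cell list (Necap2, 14 list genes), 0.50 for the B cell list (Tmem68, 13 genes), 0.51 for the macrophage list (Slc25a37, 11 genes) and -0.41 for the neutrophil list (Frzb, 14 genes). These are the largest in size of 91 values each and share their arrays, and their part in the levels was not tested. The values just inside the limit on the gap were 0.803 for 2210010C04Rik and 0.811 for Tubgcp4 and Hps1, and those just outside were 0.796 for Pla2g2d, 0.795 for Paip1 and 0.768 for Trim30b.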

How the data were processed

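Per the file headers, the authors deposited raw probe intensity for every array beside a detection p-value. No source used here says how that p-value was made. A further table deposited by the authors holds processed values on a log2 scale, and the submitters' processing notes name lumi. Per the labels, the deposited traits are natural log values per strain.

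Intensities were put on the log2 scale and quantile-normalized with limma 3.58.1 in R 4.3.3, with no filter. Genes come from GEO's platform annotation, and chromosomes and gene order from a RefSeq table (GRCm38.p6). Summaries used pandas 2.3.3 and numpy 2.4.6 in Python 3.11.15. The trait fits used lmFit and eBayes of limma on the trait divided by its SD, over 34 strains, with Benjamini-Hochberg adjustment, and were tested on simulated data. With 1 array per strain, p-values measure the spread between strains, technical error included; the number of arrays limits the precision.

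The members, lists, tests and alternatives were chosen with earlier results of these data known. Named with values were the 15 probes of widest gap, genes in blocks, the 3 of smallest p per trait, the 3 other probes of highest and lowest r, and the 3 probes on either side of the limit; a gene named outside this rule was chosen after its values were seen. Alternatives changed the gap limit, the arrays required, the normalization (neqc of limma, offset 16), the source table, the filter on dim probes, the arrays and the covariates.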

Additional observations from a re-analysis of the deposited data

Results flagged for a closer look

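A two-level pattern by the same limits was also present in data outside the account above, in 61 probes without a single gene symbol. Their gaps ran from 0.81 to 4.03 (log2). Of these, 3 had an r of at least 0.8 with the mean of the pancreas list, 18 others matched a described probe on at least 34 of 38 arrays, 13 of them on all 38, and 40 did neither. As they have no gene name here, their positions are not known.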

How the results depend on the processing

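The number of two-level probes was 118 as reported and 60 with neqc (54 of them shared, 28 compact and 26 pancreatic). It was 58 in the authors' deposited table (57 shared, 35 compact and 22 pancreatic). For the 15 probes of widest gap the difference of levels was 0.32 to 1.17 times the reported one with neqc (median 0.60) and 0.50 to 1.06 times in the deposited table (median 0.64). The cause was not tested. The split of the 38 arrays was the same in the deposited table for 105 of 118 probes and for 90 of the 91 compact ones. As that table holds the same arrays on which the probes were chosen, this is not independent support. The count ran from 81 to 148 under the other limits, filters, arrays and without normalization. Blocks numbered 16 to 22, with 40 to 61 genes. Other probes with an r of at least 0.5 numbered 3 as reported and 6 in the deposited table. Over all probes limma called 0 for LN T:B as reported, 29 among probes detected on at least 3 arrays and 17 among those detected on every array, where fewer probes were tested. No described probe was called for a trait in any alternative run, with 118 tested in most, 111 among probes detected on at least 3 arrays and 30 among those detected on every array. The 9 slopes given kept their direction in all 64 alternative fits and passed the threshold in 0, but their size fell, with neqc to -0.04 for Cdpf1 and Frzb, 0.06 for Tasp1 and -0.15 for Trappc12, and with the pancreas list mean as covariate to 0.10 for Zg16. The 7 of the 118 probes that failed the filter on detection were of Rpe, Slamf6, Polr1b, Fgr, Casp9, Cptp and Osbp. No paired analysis was possible because the samples form 1 group with 1 array per strain.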
